A study of Homo sapiens with 6 samples.

Results

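The comparison described here sets KYSE30 cells that had received either of 2 siRNAs against RAB23 beside cells that had received the control siRNA si-NC. KYSE30 is an established human cell line from a squamous cell carcinoma of the oesophagus. All 6 libraries of the series belong to it: 2 with si-RAB23-1 and 2 with si-RAB23-9, pooled as one side of 4, and 2 with si-NC as the other. Every culture received its siRNA at 100 nM with a lipid transfection reagent, so the controls share the transfection and differ in the siRNA. The values are FPKM, fragment counts scaled for gene length and for the number of reads in the library, and 14352 of the 58735 genes in the authors' table, those with an FPKM of at least 1 in at least 2 of the 6 libraries, were tested. The groups are limited as a model by being 1 cell line, 1 control siRNA and 2 siRNAs. The series' design text calls the libraries of a group biological replicates but does not say how they were grown, so p-values cover only the variation among these 6 libraries, and part of it may be technical.

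RAB23 encodes a small GTPase. Rab GTPases switch between a GTP-bound and a GDP-bound form and, in the GTP-bound form, recruit the proteins that move, tether and fuse transport vesicles. RAB23 is known from embryos as a negative regulator of Hedgehog signalling, a pathway that works through the primary cilium, and has been studied in squamous carcinomas for cell movement and invasion. An siRNA lowers its target by base pairing with the transcript, and it can also act on other transcripts through its short seed, which differs between siRNAs of different sequence.

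The libraries held between 17211025 and 24178125 reads, recovered from the FPKM as whole reads. RAB23 (ENSG00000112210, chromosome 6, 57186992 to 57222314) stood at 3.27 and 3.33 FPKM in the si-NC libraries, 1.03 and 1.10 under si-RAB23-1, and 1.18 and 1.27 under si-RAB23-9. The 4 knockdown libraries lay far below both controls and close to each other. The pooled level was 0.347 times that of si-NC, a difference of -1.005 in log2(FPKM + 1) (SE 0.0851, limma adjusted p = 0.0233). Every difference below is in log2(FPKM + 1), where the added 1 shrinks the change of weakly expressed genes such as this one. Of 10 genes that mark squamous epithelium, 8 reached 1 FPKM in some library, among them TP63 and SFN, while KRT5 (at most 0.272 FPKM) and PKP1 (at most 0.0454 FPKM) were near 0 in all 6. Their summed level was 432 to 442 FPKM with si-NC and 434 to 518 with the RAB23 siRNAs. Most of this sum was SFN, at 262 to 311 FPKM. The keratin genes were weak, with KRT14 and KRT17 at 2.1 to 3.61 FPKM and KRT6A at 3.69 to 9.73. Markers of leukocytes summed to at most 5.86 FPKM, of fibroblasts to at most 3.92, of endothelium to at most 3.99 and of simple columnar epithelium to at most 1.19. The defining genes PTPRC, PECAM1, COL1A2, DCN and LUM were at or near 0 throughout. The leukocyte and endothelial sums were mostly CSF1R and CDH5, and the fibroblast sum was mostly COL1A1, at 3.30 to 3.77 FPKM.

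With both siRNAs taken as one side, limma called 89 genes higher (0.62% of those tested) and 41 lower (0.286%) than si-NC at a Benjamini-Hochberg adjusted p under 0.05. All 130 met the rule for moving alike: both siRNAs shifted them in the same direction, the smaller of the 2 shifts was at least 0.5 times the larger, and all 4 RAB23 siRNA libraries lay on the same side of both controls. The pooled model counts the spread between the siRNAs as error and so favours such genes, and both shifts are measured from the same si-NC libraries. The median ratio of the smaller to the larger shift was 0.889, and the smallest was 0.678. Changes were moderate, with a median of 0.50 among the higher and -0.48 among the lower genes. Changes of 1 or more were seen in 1 higher and 3 lower genes. The 3 lower were the siRNA target RAB23 and the small RNA genes RNU7-79P and MIR4999, with at most 4 reads in any library. Among the 130, 121 were protein coding, 85 of them higher and 36 lower.

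These counts depend on the model and on single libraries. A model with 1 mean per group, in which the spread between the siRNAs leaves the error, called 1030 higher and 780 lower for the average of both siRNAs, and 974 of these moved alike. Voom on the recovered reads called 138 higher and 111 lower. With 1 library left out, limma called 10 higher and 4 lower without si-RAB23-1 replicate 1 and 0 without any other single library, with 624 to 1158 higher and 409 to 862 lower before adjustment (p under 0.05) in those 5 fits and 1254 and 905 with all 6 libraries. The pooled calls named below are thus those of the full set of 6 libraries.

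**Figure D1:**
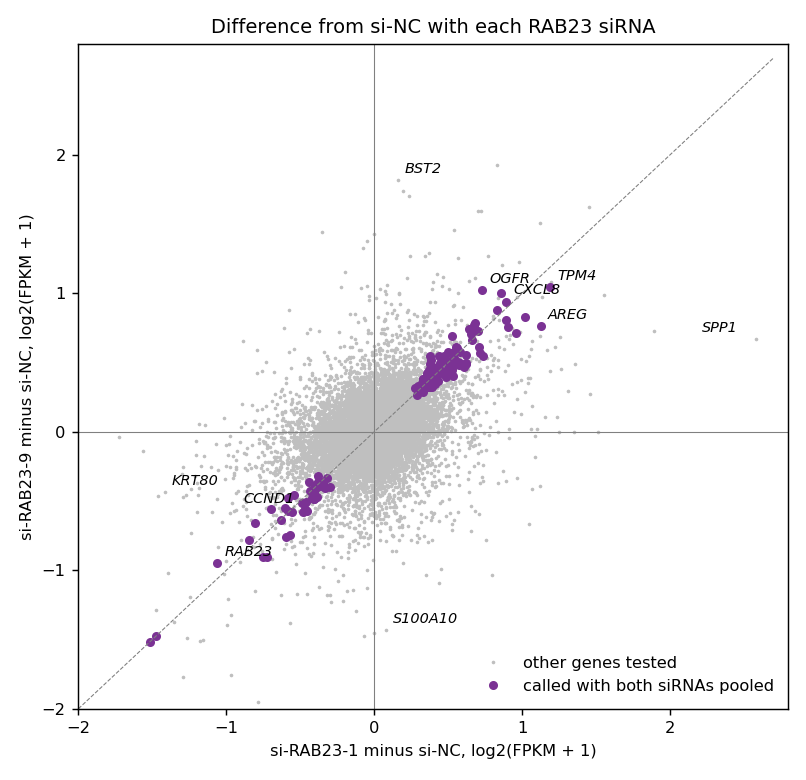
Each point is 1 of 14352 genes, with its difference from si-NC in log2(FPKM + 1) under si-RAB23-1 on the x axis and under si-RAB23-9 on the y axis. The dashed line marks equal differences, and both axes share the si-NC libraries. The 130 genes called with both siRNAs pooled (purple) lie near that line, while SPP1, BST2, KRT80 and S100A10 lie far from it.

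Among the genes that rose, several encode secreted signals and matrix proteins. AREG, which encodes the EGF receptor ligand amphiregulin (chromosome 4, 74445134 to 74455009), stood at 54.5 and 52.4 FPKM in the si-NC libraries, 123 and 112 under si-RAB23-1, and 90.3 and 92.5 under si-RAB23-9. No knockdown library overlapped the controls, and si-RAB23-1 gave the higher values. It rose by 0.94 (SE 0.134, limma adjusted p = 0.0408). CXCL8 (chromosome 4, 73740506 to 73743716) encodes interleukin 8, a chemokine that attracts neutrophils. Its level was 4.48 and 3.87 FPKM in the controls, 9.08 and 8.11 with the first siRNA (si-RAB23-1), and 8.33 and 9.52 with the other (si-RAB23-9). All 4 knockdown values were well above the controls and interleaved between the siRNAs, and the rise was 0.92 (SE 0.0839, limma adjusted p = 0.0233). MGP encodes matrix Gla protein, an inhibitor of calcification. It was at 4.17 and 4.96 FPKM in the controls, 10.5 and 10.0 with the first siRNA, and 7.98 and 9.80 with the other, a rise of 0.92 (SE 0.115, limma adjusted p = 0.0327). IGFBP3, the gene of an insulin-like growth factor binding protein, measured 49.7 and 49.2 FPKM in the si-NC libraries, 70.9 and 76.8 under si-RAB23-1, and 71.6 and 69.6 under si-RAB23-9. Its knockdown values lay close together, and it rose by 0.54 (SE 0.0527, limma adjusted p = 0.0240). The collagen genes COL17A1, of the hemidesmosome, and COL4A1, of the basement membrane, rose by 0.64 and 0.45 (limma adjusted p = 0.0327 and 0.0327).

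In the lists these genes come from, most members were not called. Of 26 matricellular and secreted matrix genes 4 were called higher and 0 lower, with a median difference of 0.03. The EGF receptor family list gave 1 higher (AREG) and 0 lower of 11, but 5 of the 11 lay above both controls in all 4 knockdown libraries and 0 below. Over all genes tested, 15.9% lay above both controls in that way and 12.7% below, and the median difference was 0.00. Of 19 NF-kappaB targets and chemokines 1 was called higher, CXCL8, and 0 lower. Only 3 lay above the controls in all 4 libraries and 1 below. Among 23 TGF-beta targets 2 were called higher, COL4A1 among them, and 0 lower, while 7 lay above and 5 below. Voom called 2, 1 and 4 genes higher in the EGF receptor, NF-kappaB and TGF-beta lists and 0 lower.

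In the actin cytoskeleton list TPM4 rose and GSN fell, and the called genes of the adhesion and junction lists, RAC1, ITGB8 and GJA1, rose. TPM4 encodes a tropomyosin, a rod-like protein that lies along actin filaments, and had the largest rise of the 130 genes (chromosome 19, 16067021 to 16103005). It measured 20.5 and 22.2 FPKM in the si-NC libraries, 51.9 and 48.0 under si-RAB23-1, and 46.6 and 43.7 under si-RAB23-9, so every knockdown library lay well above either control. The difference was 1.12 (SE 0.0771, limma adjusted p = 0.0185). RAC1 (chromosome 7, 6374523 to 6403977), the gene of a small GTPase that drives the actin-rich protrusions of moving cells, was at 105 and 101 FPKM in the si-NC libraries, 149 and 148 under si-RAB23-1, and 143 and 146 under si-RAB23-9. The 4 knockdown values spanned a narrow band above the controls, and it rose by 0.50 (SE 0.0413, limma adjusted p = 0.0233). ITGB1, which encodes integrin beta 1, and TIAM1, a guanine nucleotide exchange factor gene for RAC1, were looked at beside it after their values had been seen. ITGB1 measured 61.3 and 63.0 FPKM in the si-NC libraries, 41.8 and 40.4 under si-RAB23-1, and 55.4 and 53.4 under si-RAB23-9, so all 4 knockdown libraries were below both controls. Its pooled difference of -0.39 (95% interval -0.73 to -0.05) missed the threshold after adjustment (limma adjusted p = 0.281). Each siRNA alone passed, at -0.58 with si-RAB23-1 and -0.19 with si-RAB23-9 (limma adjusted p = 0.00211 and 0.0294), and the siRNAs differed from each other (limma adjusted p = 0.00324). TIAM1 differed by -0.01 (95% interval -0.15 to 0.12, limma adjusted p = 0.951). ITGB8, another integrin beta chain gene, rose by 0.48 (SE 0.0604, limma adjusted p = 0.0327). GJA1, the gene of the gap junction protein connexin 43, went from 6.86 and 7.22 FPKM to between 10.7 and 11.9, a rise of 0.59 (SE 0.0614, limma adjusted p = 0.0257).

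Against these rises, SEPTIN10 and GSN fell. SEPTIN10 (chromosome 2, 109542982 to 109614206) belongs to the septins, GTP-binding proteins that form filaments and rings. It stood at 18.5 and 19.3 FPKM in the si-NC libraries, 10.3 and 9.80 under si-RAB23-1, and 10.4 and 10.7 under si-RAB23-9. The 4 knockdown values lay within a narrow range little above 0.5 times the controls, a difference of -0.81 (SE 0.0544, limma adjusted p = 0.0185). GSN encodes gelsolin, which severs and caps actin filaments, and its level went from 30.8 and 30.9 FPKM to between 22.5 and 24.9. It fell with a difference of -0.38 (SE 0.0550, limma adjusted p = 0.0433). Of 44 tropomyosin and actin cytoskeleton genes, TPM4 was called higher and GSN lower, 15 lay above both controls in all 4 knockdown libraries and 5 below. The shares over all genes tested were 15.9% above and 12.7% below. The siRNAs differed from each other for 20 of the 44 (limma adjusted p under 0.05), where 21.0% of all genes tested did so. In the list of integrins and focal adhesion 2 of 27 were called higher, RAC1 and ITGB8, and 0 lower. Over all genes tested 0.62% were called higher and 0.286% lower. In this list 4 lay above both controls in all 4 knockdown libraries and 4 below, with a median difference of -0.02. The model with 1 mean per group called 4 of its members higher and 5 lower, and the siRNAs differed for 16.

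To show what lies before the start sites of some genes that led these groups, promoter windows from RefSeq on GRCh38.p14 are given, 250 bases before to 50 after the start of 1 transcript each. Capitals mark a match to a motif on either strand; that of SEPTIN10 is on the opposite strand. The motifs were chosen after the expression values had been seen: TGANTCA (bound by AP-1), TGACGTCA (the cyclic AMP response element), CACGTG (an E-box), GGAATG (bound by TEAD factors), TGACNNNGC (the core of the antioxidant response element) and the CArG box bound by SRF. The windows lie at chr19:16067288-16067587 (plus strand) for TPM4, chr4:73740319-73740618 (plus) for CXCL8, chr4:74444886-74445185 (plus) for AREG and chr2:109613917-109614216 (minus) for SEPTIN10.
TPM4: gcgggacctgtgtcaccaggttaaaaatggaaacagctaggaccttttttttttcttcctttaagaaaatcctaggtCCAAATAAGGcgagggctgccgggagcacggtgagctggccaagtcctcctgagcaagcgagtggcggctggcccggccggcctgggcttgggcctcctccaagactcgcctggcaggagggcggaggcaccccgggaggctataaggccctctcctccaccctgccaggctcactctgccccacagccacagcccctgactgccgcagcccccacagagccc
CXCL8: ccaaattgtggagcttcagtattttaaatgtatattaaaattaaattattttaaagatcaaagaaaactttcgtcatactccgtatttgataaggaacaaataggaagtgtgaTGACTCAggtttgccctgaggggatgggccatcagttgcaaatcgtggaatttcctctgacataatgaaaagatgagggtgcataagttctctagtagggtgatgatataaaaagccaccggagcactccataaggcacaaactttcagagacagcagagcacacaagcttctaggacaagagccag
AREG: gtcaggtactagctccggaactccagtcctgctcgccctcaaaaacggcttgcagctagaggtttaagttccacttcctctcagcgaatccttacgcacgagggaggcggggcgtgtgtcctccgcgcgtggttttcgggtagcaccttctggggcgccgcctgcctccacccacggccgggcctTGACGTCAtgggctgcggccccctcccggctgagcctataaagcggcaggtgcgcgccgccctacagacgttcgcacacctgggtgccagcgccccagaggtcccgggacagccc
SEPTIN10: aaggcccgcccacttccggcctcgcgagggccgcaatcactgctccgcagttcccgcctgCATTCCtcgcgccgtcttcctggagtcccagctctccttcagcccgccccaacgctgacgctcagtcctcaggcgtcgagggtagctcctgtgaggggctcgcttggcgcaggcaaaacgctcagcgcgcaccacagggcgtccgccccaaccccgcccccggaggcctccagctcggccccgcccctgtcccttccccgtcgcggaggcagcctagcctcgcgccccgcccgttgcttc

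The window of TPM4 held a CArG box, that of CXCL8 a TGANTCA, that of AREG a TGACGTCA and that of SEPTIN10 a GGAATG. These 4 are shown because they held a match: 7 windows of leading genes were read, and those of JUN, AP1S3 and PADI1 held none of the motifs. A match is only a string of letters. RefSeq windows were matched for 68 of the 89 higher genes, 28 of the 41 lower genes and 9489 of all genes tested. TGANTCA was found in 6 of the 68 (8.82%), 2 of the 28 (7.14%) and 4.63% of all. TGACGTCA was found in 1 window of each direction against 3.40% of all, and the CArG box in 1 of each against 0.970% of all. CACGTG was in 4 higher and 1 lower window (10.2% of all), GGAATG in 4 and 3 (10.6% of all), and TGACNNNGC in 11 and 4 (15.5% of all). With so few windows these shares were not compared further.

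The transcription factor genes SOX2, SOX7, JUN and TEAD1 were among the 130. SOX2 (chromosome 3, 181711924 to 181714436) encodes a factor that maintains basal squamous progenitors and is often amplified in squamous carcinomas of the oesophagus. It was at 35.8 and 40.6 FPKM in the si-NC libraries, 59.2 and 66.2 under si-RAB23-1, and 65.4 and 62.5 under si-RAB23-9. The si-RAB23-9 values fell within the range of those with si-RAB23-1, all above either control, and SOX2 rose by 0.72 (SE 0.0718, limma adjusted p = 0.0240). SOX7, a factor of another SOX subgroup, went the other way, from 8.31 and 8.19 FPKM to between 5.37 and 5.80, a difference of -0.50 (SE 0.0532, limma adjusted p = 0.0258). JUN, which encodes a subunit of the AP-1 transcription factor, measured 17.1 and 16.6 FPKM in the controls, 24.9 and 24.8 with the first siRNA, and 23.4 and 22.0 with the other. All 4 knockdown values exceeded the controls, and JUN rose by 0.47 (SE 0.0639, limma adjusted p = 0.0380). TEAD1 encodes the DNA-binding partner of YAP. It fell, with a difference of -0.36 (SE 0.0542, limma adjusted p = 0.0484). TCIM, which encodes a small protein linked to Wnt signalling, went from 2.19 and 2.40 FPKM to between 4.44 and 5.57 (difference 0.85, limma adjusted p = 0.0258).

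In the list of immediate early genes, which answer growth factors and stress within minutes, 1 of 22 was called, JUN, and it was higher. There 8 lay above both controls in all 4 knockdown libraries and 0 below, with a median of 0.17. The list of YAP targets gave 1 call each way among 26, IGFBP3 higher and TEAD1 lower, and here 4 lay above and 11 below. TEAD1 is counted as a list member, although it encodes the partner of YAP. The medians of that list were 0.09 with si-RAB23-1 and -0.22 with si-RAB23-9. Of 17 genes of ERK feedback 0 were called by the pooled limma fit, with 1 higher and 5 lower before adjustment (p under 0.05) and 0 higher and 2 lower by voom. The model with 1 mean per group called 1 higher and 7 lower. In this list 1 gene lay above the controls in all 4 libraries and 7 below. For these lists too, the shares over all genes tested were 15.9% above and 12.7% below, and 1254 of all 14352 were higher and 905 lower before adjustment.

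NOLC1 led the genes of the nucleolus. It encodes a phosphoprotein that escorts small nucleolar ribonucleoproteins, and it measured 36.2 and 37.7 FPKM in the si-NC libraries, 73.1 and 67.2 under si-RAB23-1, and 63.4 and 63.1 under si-RAB23-9. Every knockdown library was above both controls, by 0.83 (SE 0.0708, limma adjusted p = 0.0233) on average. It was the only one of 58 ribosome biogenesis genes called by the pooled limma fit, while the model with 1 mean per group called 17 higher and 0 lower. Before adjustment (p under 0.05) 17, NOLC1 included, were higher and 0 lower, where 1254 and 905 of all 14352 genes were. In that list 34 of 58 tested members were above both si-NC libraries in all 4 RAB23 siRNA libraries and 1 below. This was the largest share above the controls among the 34 lists, and its median difference was 0.12 with the siRNAs pooled, 0.18 with si-RAB23-1 and 0.08 with si-RAB23-9. Cytosolic ribosomal protein genes, in contrast, gave 0 calls among 74 by the pooled limma fit and by voom, with 6 higher and 0 lower before adjustment (p under 0.05), and a median of 0.01. The model with 1 mean per group called 3 of them higher and 0 lower.

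**Figure D2:**
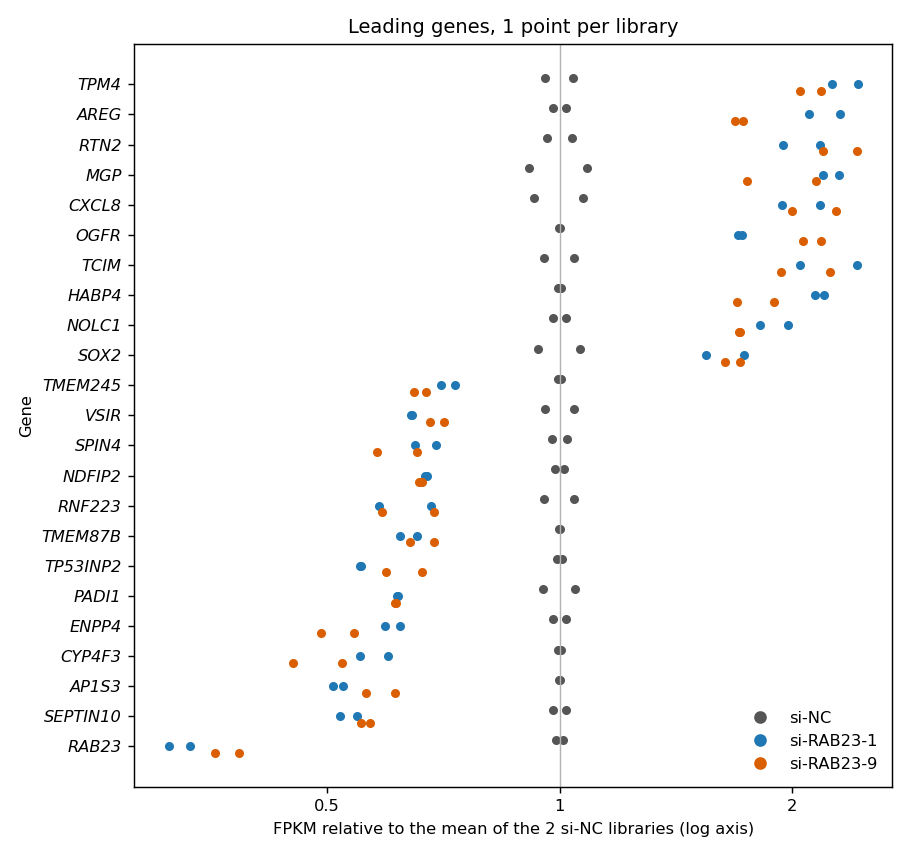
Of the protein-coding genes of largest pooled difference and a mean FPKM of at least 2, 10 higher and 12 lower are plotted. They and RAB23 are shown as FPKM divided by the mean of the 2 si-NC libraries (log axis, 1 point per library). In each of these genes the 4 knockdown libraries (blue and orange) lie on one side of both si-NC libraries (grey), and RAB23 lies lowest.

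Of the genes of membrane traffic, in which Rab proteins act, AP1S3 and AP1G1 fell. AP1S3 and AP1G1 encode the sigma and gamma subunits of the clathrin adaptor AP-1, which sorts cargo between the trans-Golgi network and endosomes. AP1S3 (chromosome 2, 223751686 to 223838027) was at 7.54 and 7.52 FPKM in the si-NC libraries, 3.95 and 3.83 under si-RAB23-1, and 4.23 and 4.60 under si-RAB23-9. All 4 knockdown values were below 0.7 times the controls, a difference of -0.73 (SE 0.0742, limma adjusted p = 0.0240). AP1G1 went from 14.8 and 15.4 FPKM to between 10.5 and 11.6, with a difference of -0.43 (SE 0.0556, limma adjusted p = 0.0349). These were the 2 called among 50 genes of vesicle coats and adaptors, both lower, where 0.62% of all genes tested were called higher and 0.286% lower. Of the 50, 5 lay above the controls in all 4 libraries and 5 below, with a median difference of -0.004. With 1 mean per group, 3 of the 50 were called higher and 4 lower. Of 44 Rab genes other than RAB23, 0 were called by the pooled limma fit, with 3 higher and 3 lower before adjustment (p under 0.05) and 1 lower by voom. The model with 1 mean per group called 1 higher and 5 lower. In this list 7 lay above the controls in all 4 libraries and 10 below. The shares over all genes tested were 15.9% above and 12.7% below, and 1254 of all 14352 were higher and 905 lower before adjustment. NDFIP2, which encodes a membrane adaptor of NEDD4 family ubiquitin ligases, measured 31.6 and 32.4 FPKM in the controls, 21.6 and 21.4 with the first siRNA, and 21.2 and 21.0 with the other. Its knockdown values were nearly equal, -0.56 (SE 0.0434, limma adjusted p = 0.0233) from the controls. TMEM87B, a Golgi membrane protein gene, fell with a difference of -0.58 (SE 0.0556, limma adjusted p = 0.0240). RTN2, the gene of a reticulon that shapes the endoplasmic reticulum, rose from 3.14 and 3.39 FPKM to between 6.36 and 7.93 (difference 0.93, limma adjusted p = 0.0233).

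The Hedgehog pathway, which RAB23 is known to restrain, showed no called gene among 17 tested, in the pooled limma fit or by voom. Before adjustment (p under 0.05) 1 was higher and 1 lower, where 1254 and 905 of all 14352 were. The model with 1 mean per group called 0 higher and 1 lower. A list of this size is near the shares called over all genes tested, 0.62% higher and 0.286% lower, when it holds 0 calls. PTCH1, the receptor gene that is also a target of the pathway, was at 1.94 and 1.88 FPKM in the si-NC libraries, 1.71 and 1.69 under si-RAB23-1, and 1.71 and 1.75 under si-RAB23-9. The values with knockdown were slightly lower without overlap, a difference of -0.10 short of the threshold (limma adjusted p = 0.578, 95% interval -0.28 to 0.07). GLI3, SUFU and GPR161, which encode a transcription factor, an inhibitor and a ciliary receptor of the pathway, differed by 0.03, 0.08 and 0.00 (limma adjusted p = 0.859, 0.703 and 0.988). The targets GLI1 and HHIP and the receptor component SMO did not reach the FPKM minimum. In the list of the RAB23 exchange factor and cilium trafficking 0 of 35 were called by the pooled limma fit, with 1 higher and 3 lower before adjustment (p under 0.05). Voom called 1 lower, and the model with 1 mean per group called 1 higher and 1 lower. KIF3A, a subunit of the kinesin that carries cargo into cilia, was nearest to a call in the pooled fit. It was at 8.66 and 8.56 FPKM in the controls, 6.01 and 5.96 with the first siRNA, and 6.49 and 6.70 with the other. Its difference of -0.40 missed the threshold (limma adjusted p = 0.0539). INTU, part of the complex that acts on RAB23 as exchange factor, differed by -0.15 (limma adjusted p = 0.576).

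Genes of squamous differentiation were called only as lower in the pooled fit, while the model with 1 mean per group called 3 higher and 8 lower. PADI1 and PADI3 are neighbours on chromosome 1 and encode peptidylarginine deiminases, enzymes that convert arginine to citrulline in keratins and filaggrin. PADI1 (chromosome 1, 17205126 to 17246005) stood at 13.2 and 12.02 FPKM in the si-NC libraries, 7.77 and 7.81 under si-RAB23-1, and 7.76 and 7.74 under si-RAB23-9. The 4 knockdown values were almost identical, -0.63 (SE 0.0549, limma adjusted p = 0.0233) from the controls. PADI3, expressed much more strongly per length, was at 564 and 552 FPKM in the controls, 437 and 448 with the first siRNA, and 429 and 414 with the other, a difference of -0.37 (SE 0.0427, limma adjusted p = 0.0280). They were the 2 called among 25 genes of squamous differentiation and the cornified envelope, where 3 lay above the controls in all 4 libraries and 8 below. Of all genes tested, 15.9% lay above and 12.7% below. CYP4F3, the gene of a leukotriene hydroxylase, and ENPP4, of an ectoenzyme family that cleaves nucleotides, fell by 0.68 and 0.66 (limma adjusted p = 0.0374 and 0.0354). TP53INP2, which encodes a nuclear protein with a part in autophagy, fell by 0.63 and VSIR, the gene of the immune checkpoint protein VISTA, by 0.53 (limma adjusted p = 0.0327 and 0.0327). The remaining lower genes of largest difference were RNF223 (-0.58), SPIN4 (-0.53) and TMEM245 (-0.51).

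Several called genes encode enzymes or proteins of metabolism and stress responses. GANAB encodes the catalytic subunit of glucosidase II, which trims the sugars of new glycoproteins in the endoplasmic reticulum. It measured 66.2 and 66.6 FPKM in the si-NC libraries, 97.4 and 96.5 under si-RAB23-1, and 99.2 and 99.3 under si-RAB23-9, and the knockdown values were tightly grouped above the controls. The difference was 0.56 (SE 0.0388, limma adjusted p = 0.0185). LPCAT1, a phospholipid remodelling enzyme gene, went from 8.09 and 8.16 FPKM to between 12.3 and 12.8, a rise of 0.58 (SE 0.0481, limma adjusted p = 0.0233). FTL, the gene of the iron storage protein ferritin light chain, was among the most abundant of the 130, at 1531 and 1523 FPKM in the controls, 1894 and 1849 with the first siRNA, and 1921 and 1917 with the other, and rose by 0.31 (SE 0.0307, limma adjusted p = 0.0240). TKT, a transketolase gene of the pentose phosphate pathway, rose by 0.33 (limma adjusted p = 0.0385). FTL and TKT were the 2 called of 22 NRF2 targets, with 4 above the controls in all 4 libraries and 4 below. The shares over all genes tested were 15.9% above and 12.7% below. TRIB3, a pseudokinase gene of the amino acid starvation response, rose by 0.49 (limma adjusted p = 0.0318). It was the only call among 31 genes of that response, in which 12 lay above the controls in all 4 libraries and 3 below, with a median of 0.14. SEL1L, an adaptor of the ubiquitin ligase that clears misfolded proteins, fell by 0.45 (limma adjusted p = 0.0359) and was the only call among 23 genes of the unfolded protein response.

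MDM2 was the called gene of the p53 response. It encodes the ubiquitin ligase that degrades p53, is itself a p53 target, and measured 12.2 and 12.3 FPKM in the si-NC libraries, 9.21 and 9.16 under si-RAB23-1, and 9.77 and 9.54 under si-RAB23-9. Its values with either siRNA lay below both controls, and it fell with a difference of -0.35 (SE 0.0506, limma adjusted p = 0.0433). It was the only call among 27 p53 targets, in which 1 lay above the controls in all 4 libraries and 10 below. Of all genes tested, 15.9% lay above and 12.7% below. The p53 target GDF15 lay just outside the threshold (-0.50, limma adjusted p = 0.0518), as did OTUD1 (0.56) and ZBTB7A (0.48), while TLK2 (0.41), LOXL2 (-0.35) and KLHDC3 (0.46) lay just inside it. These neighbours of the threshold were singled out after their values had been seen.

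**Figure D3:**
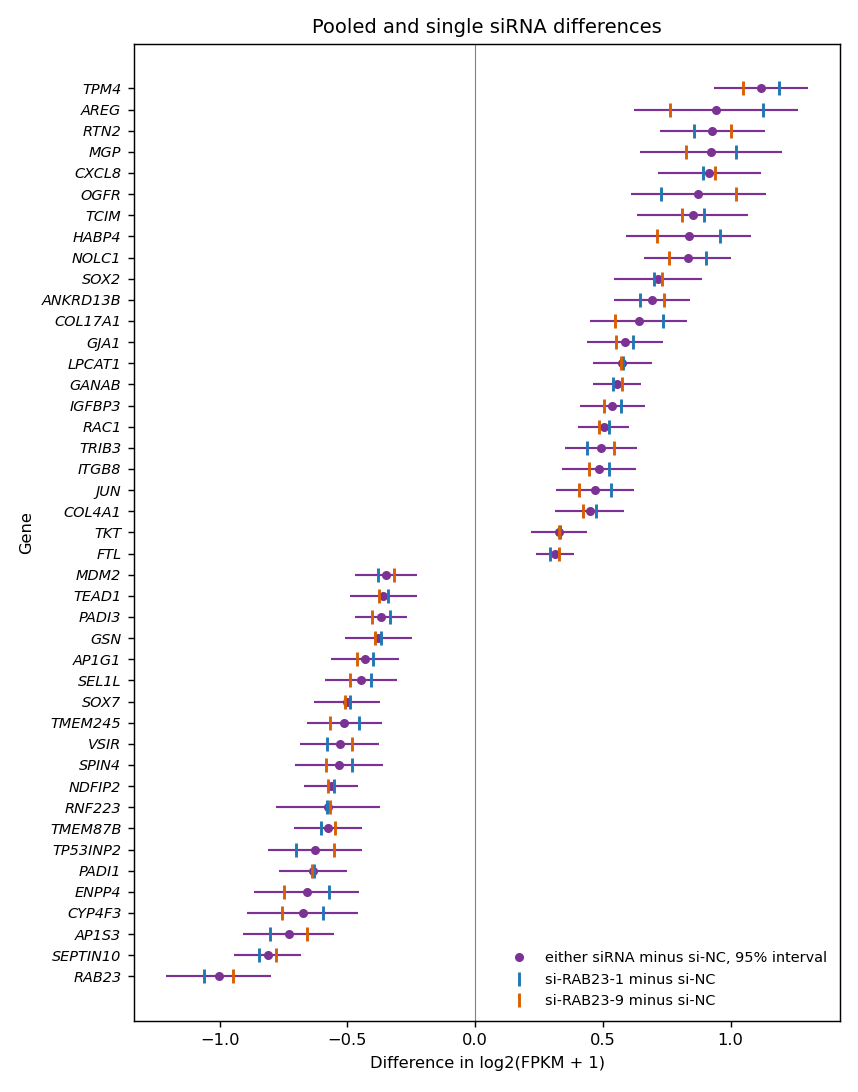
For the called genes named by rule and shown here, the circle gives the pooled difference between the RAB23 siRNAs and si-NC in log2(FPKM + 1) and the line its 95% interval from limma. Blue and orange ticks give the difference with each siRNA alone. The ticks lie close to the circle for PADI1 and LPCAT1 and farther apart for AREG and OGFR.

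The lists of S phase, G2 and mitosis, and interferon response genes, for many of whose members the siRNAs differed from each other, held no gene called in the pooled limma fit. Of 48 genes of S phase and DNA replication 0 were called, with 1 higher and 0 lower before adjustment (p under 0.05) and 0 by voom. The model with 1 mean per group called 1 higher and 2 lower. The siRNAs differed from each other for 32 of these 48, and the medians were -0.12 with si-RAB23-1 and 0.14 with si-RAB23-9. In the list of G2 and mitosis 0 of 47 were called, with 0 higher and 9 lower before adjustment (p under 0.05) and 1 lower by voom. There 1 lay above the controls in all 4 libraries and 12 below, and the siRNAs differed for 29. The model with 1 mean per group called 2 of this list higher and 11 lower. Of 46 interferon response genes 0 were called, with 8 higher and 0 lower before adjustment (p under 0.05) and 0 by voom, although 19 lay above the controls in all 4 libraries and 2 below. The model with 1 mean per group called 28 of the 46 higher and 1 lower, so this count depends on the model. The siRNAs differed for 38 of the 46, with medians of 0.06 with si-RAB23-1 and 0.60 with si-RAB23-9. Over all genes the siRNAs differed for 3019, the 21.0% given above. The pooled fit called 0.62% of all genes tested higher and 0.286% lower, so 0 calls in a list of this size is near that share. Before adjustment, 1254 of all 14352 were higher and 905 lower. The shares without overlap were 15.9% above and 12.7% below.

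Of the remaining lists, those of mesenchymal genes, G1 cyclins, cholesterol and fatty acid synthesis, hypoxia and glycolysis, heat shock, autophagy and lysosome, RNA interference and mitochondrially encoded mRNAs had 0 members called by the pooled limma fit. At an unadjusted p under 0.05 they gave in this order 2, 2, 5, 3, 6, 2, 4 and 0 higher and 0, 4, 2, 5, 0, 2, 5 and 2 lower members. Voom called 1 mesenchymal gene higher, and 2 genes of the G1 list, 1 of hypoxia and 1 of RNA interference lower. In the same order, the model with 1 mean per group called 2, 3, 4, 2, 5, 3, 2 and 0 higher and 0, 5, 5, 5, 1, 1, 4 and 3 lower. The pooled fit called 0.62% of all genes tested higher and 0.286% lower. Before adjustment, 1254 of all 14352 were higher and 905 lower. The junction list gave 1 call of 31, GJA1, with 10 above the controls in all 4 libraries and 2 below, where 15.9% and 12.7% of all genes tested were.

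**Figure D4:**
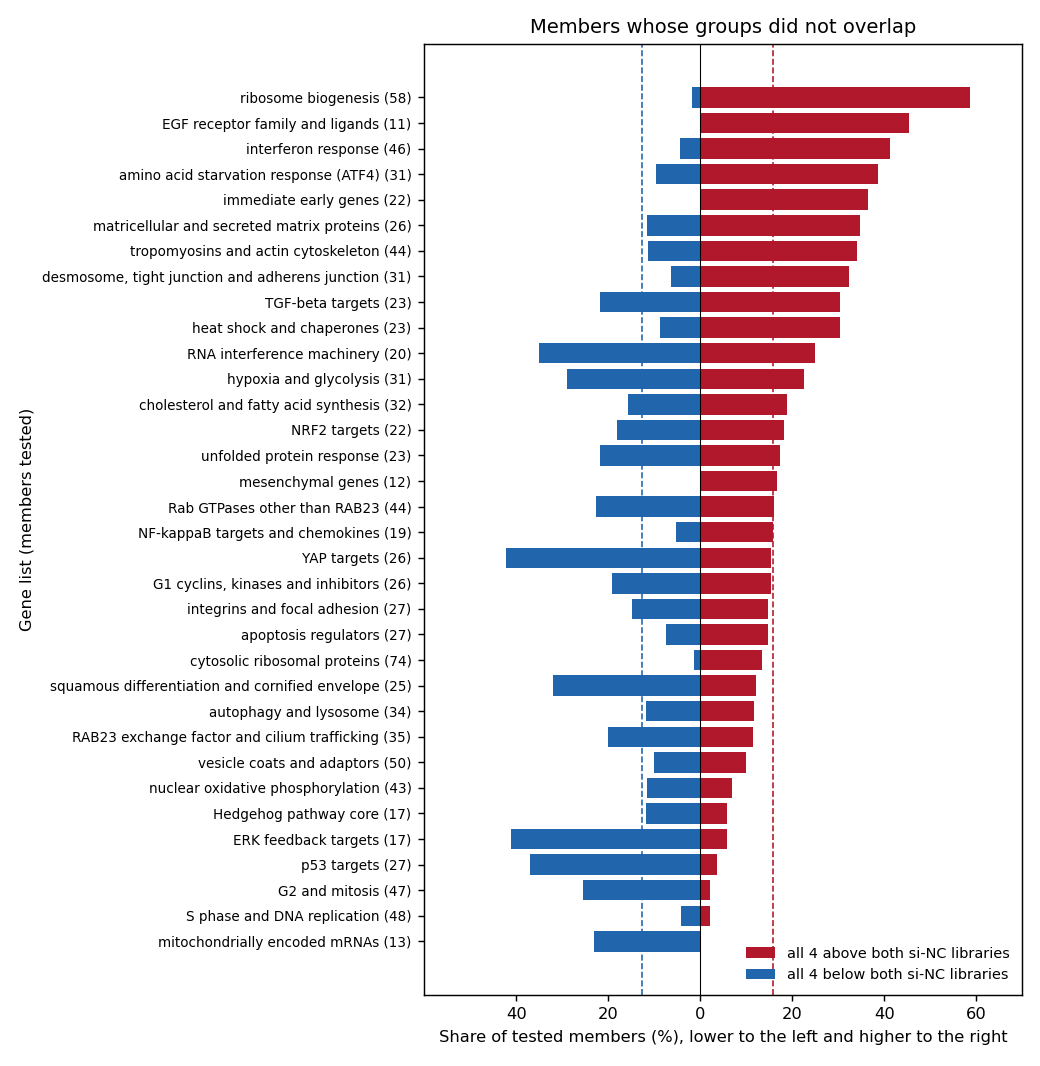
Bars give, for each gene list, the percentage of tested members whose 4 RAB23 siRNA libraries all lay above (red, to the right) or all below (blue, to the left) both si-NC libraries. Dashed lines mark the same percentages over all 14352 genes, 15.9% above and 12.7% below. Ribosome biogenesis reaches farthest to the right and YAP targets farthest to the left.

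Genes with a large difference for 1 siRNA, or for both in unequal size, were among those not called with the siRNAs pooled. These examples were chosen after their values had been seen. SPP1, the gene of osteopontin, averaged 1.62, made up of 2.58 with si-RAB23-1 and 0.67 with si-RAB23-9, and its pooled limma adjusted p was 0.323. BST2, an interferon-induced gene, averaged 0.99, from 0.16 with si-RAB23-1 and 1.82 with si-RAB23-9 (limma adjusted p = 0.482). CCND1, which encodes cyclin D1, was lower in every knockdown library, at 114 and 113 FPKM in the controls and at most 77.02 after knockdown. Its pooled difference of -0.75 missed the threshold (limma adjusted p = 0.0708). Each siRNA alone passed, at -0.94 with si-RAB23-1 and -0.56 with si-RAB23-9 (limma adjusted p = 0.000975 and 0.00143). The siRNAs also differed from each other (limma adjusted p = 0.00195). Genes that each siRNA moved in opposite directions cancelled. PRSS23, a secreted protease gene, was at 16.1 and 16.2 FPKM in the si-NC libraries, 23.9 and 23.1 under si-RAB23-1, and 10.5 and 10.4 under si-RAB23-9, above the controls with the first siRNA and below them with the other. The pooled difference was -0.04 (limma adjusted p = 0.980). S100A4, a calcium-binding protein gene, showed the reverse order with 12.3 and 11.4 FPKM in the controls, 6.54 and 6.93 with the first siRNA, and 16.6 and 17.9 with the other, and its pooled difference was -0.11 (limma adjusted p = 0.933). FZD1, a Wnt receptor gene, and TRIB2 followed S100A4 in pattern, with differences of -0.45 with si-RAB23-1 and 0.54 with si-RAB23-9 for FZD1 and of -0.56 with si-RAB23-1 and 0.46 with si-RAB23-9 for TRIB2.

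Within the 130 genes the siRNAs differed in size for 5, all still in the same direction (limma adjusted p under 0.05 for si-RAB23-9 minus si-RAB23-1). AREG, HABP4 and COL17A1 rose more with si-RAB23-1, and OGFR and KLHDC3 more with si-RAB23-9. OGFR, the gene of the opioid growth factor receptor, measured 11.2 and 11.3 FPKM in the si-NC libraries, 19.2 and 19.4 under si-RAB23-1, and 23.2 and 24.5 under si-RAB23-9, with no overlap between any of the 3 groups. Its differences were 0.73 with si-RAB23-1 and 1.02 with si-RAB23-9. HABP4, which encodes an RNA-binding and hyaluronan-binding protein, was at 4.16 and 4.12 FPKM in the controls, 9.11 and 8.88 with the first siRNA, and 7.86 and 7.03 with the other, with differences of 0.96 with si-RAB23-1 and 0.71 with si-RAB23-9. For the other 125 the difference between siRNAs did not pass the test, which does not show that they are equal. At LPCAT1 the 95% interval of that difference ran from -0.11 to 0.10, and at RAB23 itself from -0.09 to 0.31.

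Further members outside the naming rule, picked after their values had been seen, fill out the roles above. STAM2, which sorts ubiquitinated cargo on endosomes, fell by 0.43, and PIK3CB, the gene of a catalytic subunit of phosphoinositide 3-kinase, by 0.45 (limma adjusted p = 0.0380 and 0.0272). LOXL2, which encodes an enzyme that crosslinks collagen, fell by 0.35 and PARD6B, of the PAR polarity complex, by 0.42. The lysosomal enzyme genes SMPD1 and FUCA1 fell by 0.48 and 0.33 (limma adjusted p = 0.0432 and 0.0408). Among the higher genes were SDC4, the gene of the cell surface proteoglycan syndecan 4 (0.52), SLIT2, of a secreted guidance protein (0.44), and PTGER4, of a prostaglandin receptor (0.46). DENND5A and TBC1D9B, which encode an exchange factor for Rab proteins and a member of the family that turns Rab proteins off, rose by 0.58 and 0.38 (limma adjusted p = 0.0263 and 0.0380). TMEM216, of the ciliary transition zone, rose by 0.54 (limma adjusted p = 0.0373). PRDX4, a peroxidase gene of the endoplasmic reticulum, rose by 0.64, and IFI16, an interferon-inducible gene of a DNA sensor that is not in the interferon list, by 0.66 (limma adjusted p = 0.0263 and 0.0265).

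Not all of the 130 calls rest on many reads. RNU7-79P was read 2 and 3 times in the si-NC libraries and 0 times in the other 4, and MIR4999 3 and 4 times and 0, so no fold is given. For RNU6ATAC18P, AC253536.3, ENSAP2 and AC010542.5 the mean was also under 100 reads per library. RNU6ATAC18P lies within DHRS3 and MIR3972 within PADI3, each annotated on the same strand, and all of these were called lower. Whether reads of the short genes came from the longer ones was not tested. ENSAP2 and PPP1R14BP3 are processed pseudogenes of ENSA and PPP1R14B, which were called higher too, and reads of such near-identical copies could have been assigned to either. The antisense genes AP002387.1 and AC010542.5 cannot be told from their sense partners, since the strandedness of the libraries is not given in the sources used here.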

How the data were processed

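RNA of 6 KYSE30 libraries was sequenced, in 3 groups of 2 by their titles. The authors deposited 1 table of FPKM per gene and library. Per the submitters' processing notes, which give no roles, FastQC, Trimmomatic 0.36, STAR 2.5.1b, RSEM 1.2.29 and edgeR 3.8.5 were used, with hg19 as the build. The gene positions in the table match GENCODE 29 (GRCh38) for 58735 of 58735 genes, so positions are printed on GRCh38. Multiplying FPKM by gene length gave values that were whole reads to within 0.01 after division by a constant for each library. In 27 cases a symbol turned into a date was restored by gene ID.

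For 14352 genes, log2(FPKM + 1) was tested with limma (version 3.58.1, R version 4.3.3), with 1 mean for the 4 RAB23 siRNA libraries, 1 for si-NC, eBayes with a trend (4 residual degrees of freedom), two-sided, with Benjamini-Hochberg adjustment over all genes tested. This treats 2 libraries of each of 2 siRNAs as 4 replicates. Differences per siRNA and between siRNAs came from a fit with 1 mean per group (3 residual degrees of freedom). The procedure was tested on simulated data. These gave both siRNAs the same change, so they do not show how the pooled fit performs where the siRNAs differ. Named by rule were RAB23, the 12 higher and 12 lower protein-coding genes of largest difference and the 6 and 6 of smallest p among those moving alike with a mean FPKM of at least 2, up to 4 called members of each of 34 lists, Hedgehog and cilium members needed to describe those lists, and 4 genes of each opposite pattern. Some genes that this rule names are not reported here. Members and lists were chosen with earlier results of these data known. Alternatives were other models, pseudocounts, filters, scalings, voom on recovered reads, and leaving out each library.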

Additional observations from a re-analysis of the deposited data

Results flagged for a closer look

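Among the called genes named by rule, 4 differed between the siRNAs in a direct test, although both siRNAs moved them in the same direction. The differences, si-RAB23-9 minus si-RAB23-1 on the log2 scale, were -0.363 for AREG (limma adjusted p = 0.00945), 0.294 for OGFR (0.00875), -0.245 for HABP4 (0.0382) and -0.188 for COL17A1 (0.0393). In each of these 4 genes the 2 libraries of one siRNA lay above both libraries of the other.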

How the results depend on the processing

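The counts of genes higher, lower and moving alike were 89, 41 and 130. The fit with 1 mean per group gave 1030, 780 and 974, and voom on recovered reads gave 138, 111 and 249. With no filter, 59 were higher and 74 lower. The replicate block gave 0, 0 and 0, with 1022 higher and 694 lower at an unadjusted p under 0.05. The replicate numbers share no stated batch. Over all genes tested, deviations of same-numbered libraries correlated at -0.0562, -0.0158 and 0.061 between the groups. Whether same-numbered libraries shared a batch that acts on some genes was not tested. Leaving out 1 library gave 0 to 10 higher, 0 to 4 lower and 0 to 14 alike. Each such fit has fewer samples, and the cause of the lost calls was not tested. Pseudocounts of 0.1 and 0.5, a mean FPKM of at least 5, quantile normalization and median-of-ratios scaling kept all 3 counts within 1.5 times, and a ratio of at least 0.75 between the siRNAs left 124 alike. Of the 130 genes, 77 kept their call with no filter, 107 with quantile normalization and 122 by voom; the cause was not tested. No named gene that was called changed direction, which the lack of overlap between groups already fixes in part. Low counts limit the genes with few reads, and 2 control libraries limit all others.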
